A study of Mus musculus with 240 samples.

Results

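Collagens are the main structural proteins of the extracellular matrix. The rows of the count table described here are the 44 protein-coding genes whose symbol has the form of a collagen alpha chain (Col, a type number, a, a chain number), out of 22003 protein-coding genes and 34623 genes in all. The study sequenced RNA of tdTomato-positive mouse brain cells that were captured by laser from cryosections after tamoxifen, at 12, 90 or 150 days after its start (days post induction, dpi). All groups were labelled as oligodendrocyte precursor cells (OPCs), the glial progenitors that make oligodendrocytes, except the mutants at 150 dpi, which were labelled as cells of brain tumours. The 37 bulk animals formed 6 groups: Trp53-/- Nf1-/- (CKO) at 12 dpi (n = 7) and 90 dpi (n = 7), tumours of the same genotype at 150 dpi (n = 7), and wild-type (WT) at 12 dpi (n = 5), 90 dpi (n = 5) and 150 dpi (n = 6). A further 192 small libraries, all CKO at 12 or 90 dpi, were either 10-cell samples (56 at each time) or pool-and-split controls (40 at each time), a design in which captured material is pooled and then divided. The Cre driver, the strain, the tamoxifen dose and the age of the animals are not given in the sources used here. Animals are named by their group and number, as in the labels.

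Each collagen molecule is a rope of chains wound around each other, and most chains cannot be secreted without their partners. Fibrillar collagens (types I, II, III, V, XI, XXIV and XXVII) assemble into fibrils, fibril-associated collagens decorate them, type IV forms the sheet of basement membranes, type VI forms beaded filaments, and types XV and XVIII carry heparan or chondroitin sulphate and sit at basement membranes. In the healthy brain most collagen lies in the walls of blood vessels and in the meninges. Types II, IX and XI together form the thin fibrils of cartilage.

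The promoter windows of members that the results below turn on are given first: those of Col11a1 and Col9a1, which rose in all tumours, of the neighbours Col4a1 and Col4a2, which share 1 start region, and of Col3a1, which was high in 2 tumours. They are RefSeq windows on GRCm38.p6, 250 bases before to 50 after the transcription start, written 5′ to 3′ on the strand of the gene. Col11a1 lies at chr3:114030290-114030589 (plus strand), Col9a1 at chr1:24177360-24177659 (plus), Col4a1 at chr8:11312777-11313076 (minus), Col4a2 at chr8:11312555-11312854 (plus) and Col3a1 at chr1:45311288-45311587 (plus). Capitals mark matches, on either strand, to the TATA box TATAAA, the CCAAT box CCAAT, the GC box GGGCGG or the core AACAAT bound by SOX factors.
Col11a1: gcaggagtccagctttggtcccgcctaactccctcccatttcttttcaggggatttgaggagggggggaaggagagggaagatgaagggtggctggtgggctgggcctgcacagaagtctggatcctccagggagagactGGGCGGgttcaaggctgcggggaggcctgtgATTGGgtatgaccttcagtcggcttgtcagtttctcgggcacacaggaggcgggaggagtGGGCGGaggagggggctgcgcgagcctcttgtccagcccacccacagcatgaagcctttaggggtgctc
Col9a1: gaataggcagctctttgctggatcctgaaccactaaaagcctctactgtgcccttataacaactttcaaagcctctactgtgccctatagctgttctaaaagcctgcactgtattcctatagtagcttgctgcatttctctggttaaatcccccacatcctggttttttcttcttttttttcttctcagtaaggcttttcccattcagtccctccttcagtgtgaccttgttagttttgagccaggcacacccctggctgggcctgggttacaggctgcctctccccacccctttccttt
Col4a1: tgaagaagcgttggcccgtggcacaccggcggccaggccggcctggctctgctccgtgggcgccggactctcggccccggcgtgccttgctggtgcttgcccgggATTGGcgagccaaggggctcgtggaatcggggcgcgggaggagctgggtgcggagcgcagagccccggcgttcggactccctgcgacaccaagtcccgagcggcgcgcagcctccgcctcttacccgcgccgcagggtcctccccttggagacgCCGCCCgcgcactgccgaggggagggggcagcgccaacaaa
Col4a2: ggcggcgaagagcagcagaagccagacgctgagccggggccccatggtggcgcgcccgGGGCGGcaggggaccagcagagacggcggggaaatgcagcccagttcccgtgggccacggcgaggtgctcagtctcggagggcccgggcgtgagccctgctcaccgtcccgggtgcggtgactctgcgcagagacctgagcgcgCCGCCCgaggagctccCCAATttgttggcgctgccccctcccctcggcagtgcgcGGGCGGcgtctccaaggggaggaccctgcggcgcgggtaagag
Col3a1: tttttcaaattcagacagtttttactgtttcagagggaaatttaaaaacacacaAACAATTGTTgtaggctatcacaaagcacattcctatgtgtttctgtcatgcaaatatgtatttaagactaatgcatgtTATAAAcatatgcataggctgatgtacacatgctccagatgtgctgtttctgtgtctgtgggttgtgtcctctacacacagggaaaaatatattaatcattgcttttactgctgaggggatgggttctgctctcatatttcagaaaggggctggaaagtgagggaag
Windows were found for 35 of the 44 members. Among them 5 held TATAAA (14.3%), 12 CCAAT (34.3%), 22 GGGCGG (62.9%) and 1 AACAAT (2.86%). Of all 32851 windows of the same length, 13.6%, 37.4%, 35.7% and 10.7% did. In the 5 windows printed, no motif overlapped another kind. The 2 AACAAT matches of Col3a1, on opposite strands, overlap each other, and its window also holds TATAAA. Col11a1 held 2 GC boxes and 1 CCAAT box, and Col9a1 held none of the 4 motifs. Col4a1 and Col4a2 are transcribed away from each other with starts 21 bases apart, so their windows share 78 bases. The other type IV genes are arranged in the same way, with 72 bases between the annotated starts of Col4a3 and Col4a4 and 1309 bases between those of Col4a5 and Col4a6.

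Depth ran from 0.0936 to 31.3 M counts per bulk animal and from 1.64 to 6.49 M counts per small library (M, mega). The shallowest animal, WT_21167 at 90 dpi, was far below the rest, and its 3-count floor is 28.4 CPM (counts scaled to a common library total), above the level of most collagens. Marker lists also differed between groups. The summed level of 12 neuron markers was 9894 to 15038 CPM in WT animals at 150 dpi and 897 to 2905 CPM in tumours, that of 12 OPC markers 2184 to 4422 and 5148 to 13582 CPM, and that of 14 microglia and macrophage markers 176 to 256 and 408 to 1471 CPM. No neuron marker was at 0 in any animal of either group, although the cells were labelled as OPCs or tumour. In such bulk samples fewer cells of a type and less RNA per cell cannot be told apart. The part of these shifts in the results was not tested.

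In WT animals at 150 dpi the collagen genes were at a low level, with a sum of 196 to 316 CPM over the 44 members (median 230, n = 6). Levels between genes are compared per kilobase of exon. On that scale Col6a1, which makes a chain of type VI microfibrils, was highest at 7.96 ± 3.60 CPM per kb (SD, n = 6), followed by Col9a3, a chain of type IX, at 6.86 ± 2.19, and by the basement membrane chains Col4a2 at 3.01 ± 0.98 and Col4a1 at 2.52 ± 0.16. The ranges of Col6a1 and Col9a3 overlapped. Col11a1, the alpha 1 chain of type XI, was sixth at 1.71 ± 1.05 CPM per kb. In tumours the sum rose to 511 to 8049 CPM (median 989, n = 7), and the lowest tumour lay above the highest animal of each other group. The sum was 245 to 373 CPM in CKO animals at 90 dpi and 250 to 420 CPM at 12 dpi. In tumours the order per kb was led by Col11a1 at 63.3 ± 92.8, Col9a3 at 39.2 ± 44.0, Col11a2 at 21.2 ± 33.1 and Col9a1 at 19.3 ± 24.7 CPM per kb (SD, n = 7). These SDs are larger than the means. By median Col9a3, at 22.5 CPM per kb, stood above Col11a1, at 13.8 CPM per kb. The genes were read in the same tumours, so the SD between tumours is not the spread of their differences. The order of the first places was not tested.

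Before tumours no collagen gene passed the test. Neither CKO against WT at 12 dpi nor CKO against WT at 90 dpi called any of the 39 members that passed the filter on low counts, against 0.0184% and 0.0489% of all 16346 genes tested. CKO at 90 against 12 dpi called no gene at all (0%), WT at 90 against 12 dpi 0.00612% and WT at 150 against 90 dpi 0.0184%, with no collagen among them (edgeR quasi-likelihood test, p adjusted after Benjamini and Hochberg over the whole table, threshold 0.05). The number of members with an unadjusted p under 0.05 was 0 at 12 dpi and 1 at 90 dpi for CKO against WT. DESeq2 called 0 members in both. Col2a1, the cartilage fibril chain, had a median of 0.38 CPM in CKO at 12 dpi and 0.77 CPM at 90 dpi, and Col9a1 had 0.25 and 0.31 CPM. Their largest values outside tumours were 2.90 CPM (Col2a1, WT at 150 dpi) and 2.27 CPM (Col9a1, WT at 150 dpi). The members Col6a4, Col6a5, Col8a2, Col13a1 and Col22a1 did not pass the filter, and none exceeded 2.43 CPM in any animal.

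Tumours against WT at 150 dpi changed 26 of the 39 tested members: 25 rose and 1, Col7a1, fell. Of all genes tested 46.2% were called, 24.3% higher and 21.9% lower. In 8 members the 7 tumours and 6 WT animals did not overlap, against 15.7% of all genes. The median log2 change was 2.42 over the tested members and 0.06 over all genes. By class, 9 of 11 fibrillar genes rose, 5 of 6 basement membrane genes, 5 of 8 tested fibril-associated genes, 2 of 4 tested type VI genes, both multiplexins (Col15a1 and Col18a1), 1 of 2 tested short chain genes, 1 of 2 others (Col28a1) and none of the 3 tested transmembrane collagens. The 26 calls became 17 when only tumours and WT animals at 150 dpi were fitted. They became 23 without Tumor_16713 and 20 without Tumor_16713 and Tumor_21354 together. Calls per gene below are from the fit of all bulk animals, unless animals are said to be left out. That fit shares its estimate of spread for a gene between groups, whereas tumours could differ widely. The highest tumour was 1006 times the lowest for Col6a3, 50.7 times for Col11a1 and 4.09 times for Col28a1. The adjusted p of a single gene is therefore bound to that fit.

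**Figure D1:**
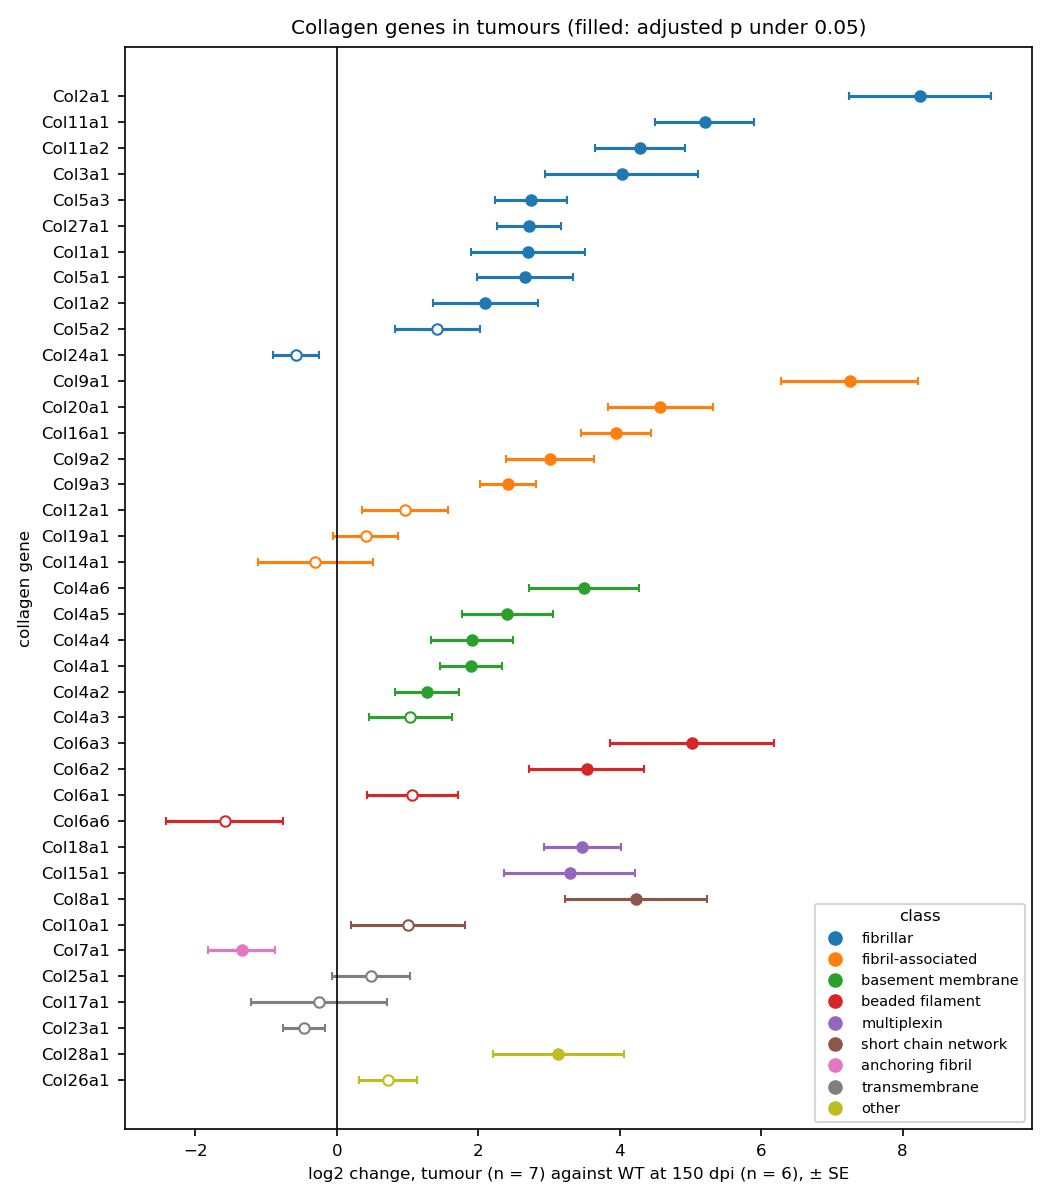
Log2 change (x axis) of the 39 tested collagen genes (y axis, grouped by class in colour) in tumours (n = 7) against WT at 150 dpi (n = 6), with SE, from the edgeR fit. Filled points passed an adjusted p of 0.05: 25 lie above 0, led by Col2a1 at 8.24 and Col9a1 at 7.25, and 1, Col7a1, lies below.

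The largest rises were those of Col2a1, Col9a1 and Col11a1, which are chains of cartilage fibrils. The other chains of types IX and XI did not lead. Col6a3 (log2 change 5.03) and Col20a1 (4.58) rose more than Col11a2 (4.29), Col9a2 (3.01) and Col9a3 (2.42). Col2a1 (chromosome 15, 97975602 to 98004695, minus strand), the only chain of type II collagen, stood at 11.7 CPM in Tumor_16840, 12.0 in Tumor_21256, 37.2 in Tumor_21354, 57.3 in Tumor_16713, 107 in Tumor_21349, 195 in Tumor_16844 and 626 in Tumor_16839. WT animals at 150 dpi ran from 0 to 2.90 CPM (median 0.17), so every tumour lay above every WT animal. The change was 8.24 ± 1.00 (log2, SE; 303-fold; adjusted p = 1.57e-08 in edgeR). It was 7.21 without Tumor_16839 and 9.93 without WT_21591, and was called without any 1 of the 37 animals.

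Col9a1 (chromosome 1, 24177610 to 24252684, plus strand), the alpha 1 chain of the fibril-associated type IX, was 282 CPM in Tumor_16713, 270 in Tumor_16839, 84.4 in Tumor_16844, 23.0 in Tumor_21256, 13.3 in Tumor_21349, 5.53 in Tumor_21354 and 4.68 in Tumor_16840, against 0 to 2.27 CPM in WT (median 0.57). All tumours lay above all WT animals, with a change of 7.25 ± 0.97 (SE, adjusted p = 1.05e-07 in edgeR). Its partner Col9a2 rose by 3.01 ± 0.62 and Col9a3 by 2.42 ± 0.40 on the log2 scale. Col9a2 was 2.37 without Tumor_16844 and 4.04 without WT_22064, and Col9a3 1.77 without Tumor_16713. Col9a3 was already present in WT, at 16.4 to 42.0 CPM in WT at 150 dpi and 37.5 to 525 CPM in tumours. Part of its exons, 234 bases, overlaps exons of Tcfl5, so reads there could be counted for either gene.

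Col11a1 (chromosome 3, 114030540 to 114220718, plus strand) had the highest mean level per kb of all collagen genes in tumours. It reached 3232 CPM in Tumor_16713, 1467 in Tumor_16844, 544 in Tumor_16839 and 176 in Tumor_21256, with 83.8, 78.7 and 63.8 CPM in Tumor_21354, Tumor_21349 and Tumor_16840. WT animals at 150 dpi had 10.4 to 43.1 CPM (median 15.0). The groups did not overlap and the change was 5.20 ± 0.70 (log2, SE; 36.7-fold; adjusted p = 1.33e-07 in edgeR). Col11a2, the alpha 2 chain of type XI, rose by 4.29 ± 0.63 (adjusted p = 7.64e-07), from 4.01 to 12.2 CPM in WT to 6.12 to 643 CPM in tumours. Tumor_21349, at 6.12 CPM, lay within the WT range. Without Tumor_16713 the changes were 4.22 for Col11a1 and 3.13 for Col11a2, and 6.40 for Col9a1.

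Other genes of cartilage were looked at by a list of 13 genes in the table, of which 8 passed the filter. In tumours 7 of the 8 rose and none fell, where 24.3% of all genes were called higher and 21.9% lower. Acan, the proteoglycan aggrecan, rose by 4.04 ± 0.78 (log2, SE), Cnmd, which encodes chondromodulin, by 5.98 ± 1.13 and Matn1, a matrilin of cartilage, by 3.46 ± 1.04. In Tumor_16840, Tumor_21349 and Tumor_21354 Cnmd was 0.61, 0.14 and 0.76 CPM, within the WT range of 0 to 0.82 CPM. It was 3.23 to 107 CPM in the other 4. Matn1 was 0.97, 0.035 and 3.81 CPM in the same 3, none above the WT range of 0.33 to 3.97 CPM. It was 9.23 to 48.2 CPM in the other 4. Hapln1, also on the list, was 5.38, 1.31 and 8.89 CPM in the same 3, below the WT range of 12.9 to 38.0 CPM. It was 42.2 to 161 CPM in the other 4. Acan reached 937 CPM in Tumor_16713, 147 in Tumor_16844 and 90.0 in Tumor_16839, and 5.34 to 30.4 CPM in the other 4 tumours, against 5.35 to 13.8 CPM in WT. Those 3 tumours were also the highest for Col11a1, Col11a2, Col9a1 and Col9a3. OPCs themselves express Sox5, Sox6 and Sox9, which are on the same list, and Sox9 is also on the astrocyte list.

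**Figure D2:**
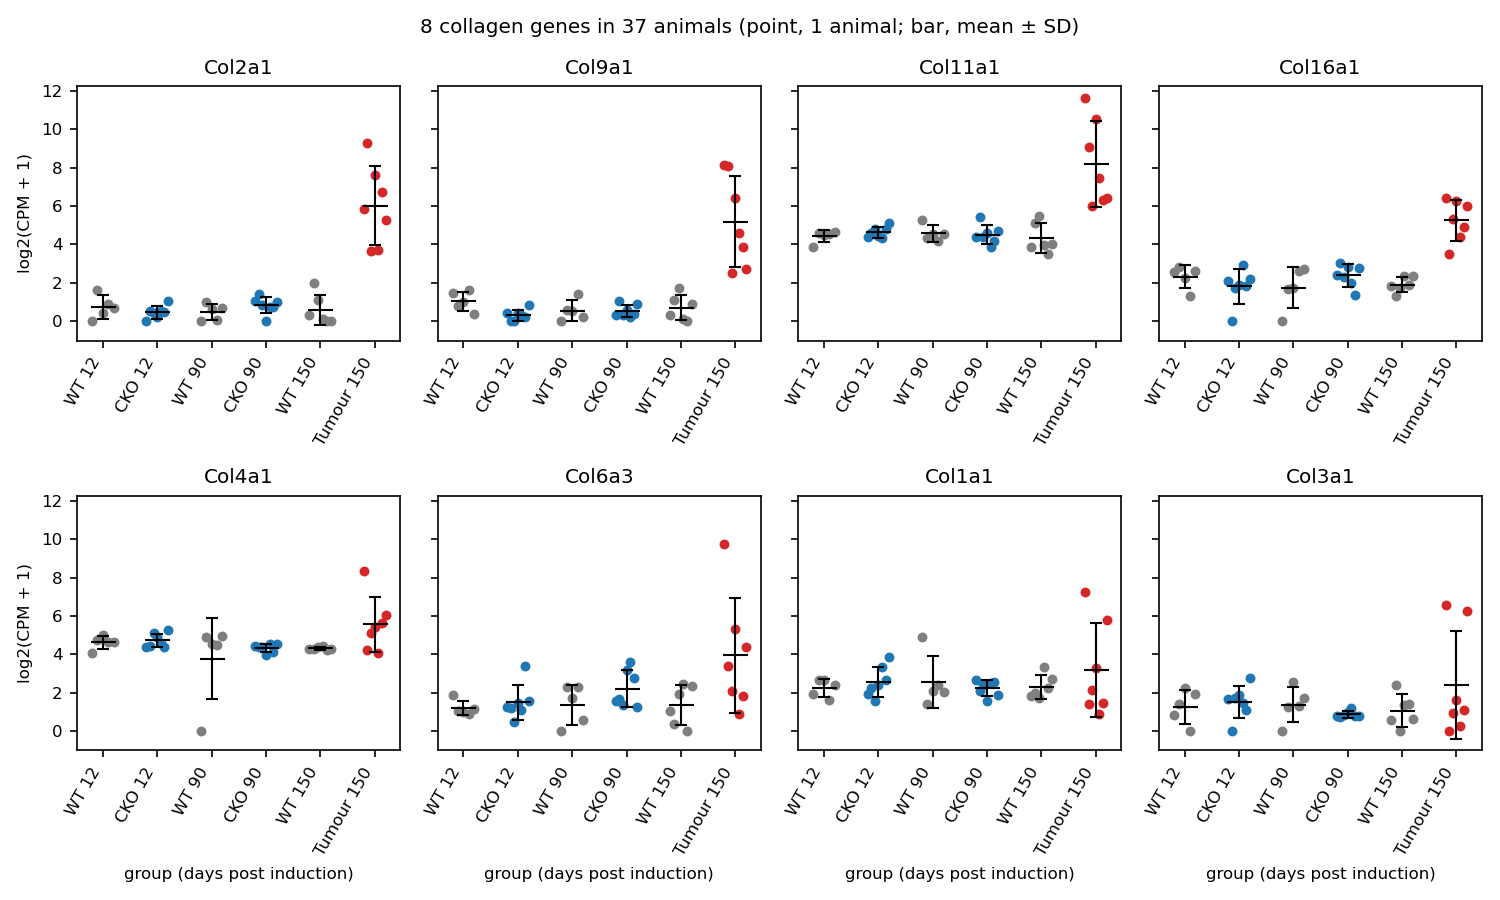
Levels of 8 collagen genes as log2(CPM + 1) (y axis) in the 37 bulk animals by group and dpi (x axis; 1 point per animal, black bar the mean with SD). Col2a1, Col9a1, Col11a1 and Col16a1 are higher in every tumour than in every WT animal at 150 dpi, while Col1a1 and Col3a1 are high in 2 of the 7 tumours.

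The fibril-forming chains of connective tissue behaved otherwise. Col1a1, the alpha 1 chain of type I, was 151 CPM in Tumor_16713 and 54.8 CPM in Tumor_21354, and 8.80, 3.33, 1.70, 1.62 and 0.86 CPM in Tumor_16844, Tumor_16840, Tumor_21349, Tumor_16839 and Tumor_21256. The WT range at 150 dpi was 2.27 to 9.26 CPM, so only those 2 tumours lay above it. Col3a1, the chain of type III, was 94.7 and 75.1 CPM in the same 2 tumours and 0 to 2.08 CPM in the other 5, against 0 to 4.35 CPM in WT. Both were called, at 2.70 ± 0.81 (adjusted p = 0.00590) for Col1a1 and 4.03 ± 1.09 (adjusted p = 0.00252) for Col3a1 (log2, SE, edgeR), and so was Col1a2 at 2.10 ± 0.74 (adjusted p = 0.0196). Without Tumor_16713 the change of Col1a1 was 1.29 (adjusted p = 0.118) and that of Col1a2 1.51 (adjusted p = 0.0822), and without Tumor_21354 that of Col1a2 was 1.33 (adjusted p = 0.150). The value of Col3a1 was 3.22 without Tumor_16713 (adjusted p = 0.0114), 2.88 without Tumor_21354 and 4.72 without WT_21591. Without both tumours the changes turned to −0.39 for Col1a1, −0.18 for Col1a2 and −0.60 for Col3a1, and none passed the test. Col5a2, which joins fibrils of type I, was 18.3 and 19.3 CPM in these tumours and 0.95 to 5.5 CPM in the other 5, and just missed the threshold (1.42, adjusted p = 0.0517), which it passed without any 1 of 10 single animals.

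Markers of perivascular fibroblasts, the cells that make types I and III collagen around brain vessels, were summed over 12 genes. The sum was 1465 CPM in Tumor_16713, 364 in Tumor_21354, 245 in Tumor_16844 and 46.7 to 102.6 CPM in the other 4, against 36.8 to 98.0 CPM in WT at 150 dpi. Of 11 tested markers 6 rose in tumours and none fell, a called share of 54.5%, where 46.2% of all genes were called, 24.3% higher. Against CKO at 90 dpi 7 of the 11 rose and 0 fell, where 26.4% of all genes were called higher. Mgp, matrix Gla protein, was 860 CPM in Tumor_16713, 136 in Tumor_21354, 123 in Tumor_16844 and 9.46 to 24.0 CPM in the other 4, against 2.27 to 13.6 CPM in WT. Lum, the fibril-binding proteoglycan lumican, was 40.7, 33.8 and 24.2 CPM in these 3 tumours and 0 to 4.09 CPM in WT. Dcn, the proteoglycan decorin, was 95.2 CPM in Tumor_16713 and 102 CPM in Tumor_21354, then 27.4 CPM in Tumor_16840 and 1.56 to 7.00 CPM in the other 4, against 2.04 to 7.93 CPM in WT. Aldh1a2, an enzyme of retinoic acid synthesis, was 16.6 and 30.0 CPM in the same 2 tumours, 0.67 to 8.83 CPM in the other 5 and 0 to 4.29 CPM in WT. Slc6a13, a GABA transporter, was 6.48 and 11.1 CPM in these 2 and 0.18 to 3.57 CPM in the other 5, against 0.51 to 6.23 CPM in WT. Osr1 and Slc22a6, both at low levels, were highest in Tumor_16713. Osr1 was 2.86 CPM there, at most 0.45 CPM in the other 6 and at 0 in 3 of them, and at 0 in all 6 WT animals. Slc22a6 was 3.29 CPM in Tumor_16713, 2.96 CPM in Tumor_21354 and at 0 in 3 tumours, against 0 to 2.32 CPM in WT. All 12 markers were above 0 in these 2 tumours and in Tumor_16840. The sum of the fibroblast list and the levels of types I and III were thus highest in Tumor_16713 and Tumor_21354. Not every marker followed. Igf2 was 386 CPM in Tumor_16713 but 12.6 CPM in Tumor_21354, below the WT range of 14.2 to 54.7 CPM. Slc47a1 was 5.38 and 0.62 CPM in these 2, against 2.34 CPM in Tumor_16840 and 0 to 2.72 CPM in WT. Fbln1 was 20.9 and 18.3 CPM in these 2, against 0.57 to 3.21 CPM in WT. It was also 19.2 CPM in Tumor_16840, 13.5 in Tumor_16839 and 13.1 in Tumor_21349. The part of such cells in these values was not tested.

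Type VIII collagen, a short chain network former of vessel walls, was high in 2 tumours. Col8a1 was 37.5 CPM in Tumor_16713 and 22.1 CPM in Tumor_21354, and 0.36 to 1.13 CPM in the other 5, against 0.25 to 0.87 CPM in WT. It rose by 4.22 ± 1.01 (log2, SE, adjusted p = 7.25e-04 in edgeR). The change was 2.86 without Tumor_16713 and 0.43 without both (adjusted p = 0.630). Col10a1, the short chain collagen of growth plate cartilage, was 12.8 CPM in Tumor_21354 and 0.11 to 2.92 CPM in the others, and was not called (1.01 ± 0.81, adjusted p = 0.320).

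Col4a1 and Col4a2, the chains of the common basement membrane network, lie head to head on chromosome 8 (11198423 to 11312826, minus strand, and 11312805 to 11449287, plus strand). Col4a1 was 329 CPM in Tumor_16713, 64.7 in Tumor_21354, 49.2 in Tumor_21349, 41.5 in Tumor_16844, 33.5 in Tumor_16840, 17.9 in Tumor_16839 and 15.7 in Tumor_21256. WT animals lay closely together at 17.7 to 20.8 CPM, and 5 tumours were above them. It rose by 1.90 ± 0.44 (log2, SE, adjusted p = 4.74e-04 in edgeR), and by 1.03 without Tumor_16713 (adjusted p = 0.00161). Col4a2 rose by 1.27 ± 0.45 (adjusted p = 0.0206), a call that was lost without Tumor_16713 (0.42, adjusted p = 0.292). The exons of the genes share 22 bases, where reads cannot be assigned to 1 of them without strand. Of 12 endothelial markers 0 were called higher and 3 fell, and their sum was 116 to 264 CPM in tumours and 239 to 353 CPM in WT. Of 12 mural markers 6 fell and 2 (Acta2 and Des) rose, with sums of 137 to 423 CPM in tumours and 395 to 709 CPM in WT. Against CKO at 90 dpi 2 of the 12 endothelial markers rose and 0 fell, and 3 mural markers rose and 2 fell. Of all genes 26.4% were called higher there and 22.6% lower. The sums in CKO animals at 90 dpi were 154 to 255 CPM (endothelial) and 235 to 421 CPM (mural). In CKO against WT at 90 dpi 1 of the 12 mural markers was called lower, where 0.0489% of all genes were called. Among tumours the mural sum was highest in Tumor_16713 (423 CPM) and Tumor_21354 (299 CPM), the 2 tumours with the most Col4a1 and Col4a2, and 137 to 208 CPM in the other 5. Acta2 was 98.1 and 18.4 CPM in these 2 and 0.61 to 12.8 CPM in the other 5. Rgs5, another mural marker, did not follow, at 113 and 134 CPM in these 2 and 72.9 to 140 CPM in the other 5. The endothelial sum was 146 CPM in Tumor_16713 and 237 CPM in Tumor_21354. It was highest, at 264 CPM, in Tumor_21256, which had the least Col4a1. The part of mural cells in the Col4a1 and Col4a2 levels was not tested.

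The minor basement membrane chains are found in few tissues such as kidney, lung, eye and smooth muscle. Col4a5 rose by 2.41 ± 0.64 and Col4a6 by 3.49 ± 0.78 on the log2 scale, reaching 58.3 CPM (Tumor_16713) and 14.1 CPM (Tumor_16844). Without Tumor_16844 the Col4a6 value was 2.85 and was still called. Col4a4 was 32.6 CPM in Tumor_16840 and 3.16 to 6.47 CPM in the other 6, against 0.67 to 3.48 CPM in WT. Its rise of 1.92 ± 0.58 (adjusted p = 0.00653) was 1.13 without that tumour (adjusted p = 0.0604). Its neighbour Col4a3 was not called (1.04 ± 0.59, adjusted p = 0.153), with 0.54 to 4.83 CPM in tumours and 0 to 3.12 CPM in WT; without WT_21593 its change was 1.67 (adjusted p = 0.0305).

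Type VI genes differed widely between tumours. Col6a3, the longest chain, was 866 CPM in Tumor_16713, 39.2 in Tumor_16844, 19.6 in Tumor_21354, 9.29 in Tumor_16839, 3.16 in Tumor_16840, 2.58 in Tumor_21349 and 0.86 in Tumor_21256. The WT range was 0 to 4.44 CPM, which 4 tumours exceeded. The change was 5.03 ± 1.16 (log2, SE, adjusted p = 5.05e-04 in edgeR), 2.52 without Tumor_16713 (adjusted p = 0.0108) and 5.74 without WT_21593. Col6a2 rose by 3.53 ± 0.81 (adjusted p = 4.92e-04), at 327 CPM in Tumor_16713, 92.0 in Tumor_16844 and 1.72 to 10.7 CPM in the other 5, against 1.13 to 7.94 CPM in WT, and was 2.20 without Tumor_16713. Col6a1 went both ways: it was 349 and 160 CPM in Tumor_16713 and Tumor_16844, above the WT range of 13.6 to 57.8 CPM, and 1.51, 6.05 and 7.00 CPM in Tumor_21256, Tumor_16840 and Tumor_16839, below it. It was not called (1.07 ± 0.64, adjusted p = 0.178), and its value was 0.05 without Tumor_16713. Col6a6 was low in both groups and not called (−1.59 ± 0.83, adjusted p = 0.118).

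Both multiplexins and 2 further fibril-associated genes rose. Col18a1, whose C-terminal fragment is endostatin, was 5.38 to 148 CPM in tumours and 1.70 to 4.56 CPM in WT, with no overlap, and rose by 3.47 ± 0.54 (log2, SE, adjusted p = 2.03e-06 in edgeR; 2.72 without Tumor_16713). Col15a1 rose by 3.29 ± 0.93 (adjusted p = 0.00357), led by 149 CPM in Tumor_16713; 4 tumours exceeded the highest WT value of 4.93 CPM, and the change was 1.89 without Tumor_16713 (adjusted p = 0.0389). Col16a1 stood at 10.5, 19.8, 29.2, 38.5, 64.1, 76.6 and 85.1 CPM in Tumor_16839, Tumor_21256, Tumor_21349, Tumor_16840, Tumor_21354, Tumor_16844 and Tumor_16713, against 1.45 to 4.15 CPM in WT. It changed by 3.94 ± 0.50 (adjusted p = 3.38e-08), and its highest tumour was 8.10 times its lowest. Col20a1 rose by 4.58 ± 0.74 (adjusted p = 3.85e-06), from 0 to 2.61 CPM to 5.69 to 47.5 CPM, again with no overlap.

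Among the minor fibrillar genes Col5a1 rose by 2.67 ± 0.68, Col5a3 by 2.74 ± 0.51 and Col27a1 by 2.72 ± 0.45 on the log2 scale. Only Col5a3 of these showed no overlap, with 2.42 to 13.2 CPM in tumours and 0.29 to 2.36 CPM in WT. Without Tumor_16713 the value for Col5a1 was 1.42 (adjusted p = 0.0140). Col24a1, another fibrillar gene, was not called: it was 2.31 to 13.0 CPM in tumours and 2.83 to 12.5 CPM in WT (−0.58 ± 0.32, adjusted p = 0.143), and without Tumor_16844 it was called lower (−0.95, adjusted p = 0.00883). Col28a1, related to type VI, was at 0 in 5 of 6 WT animals and at 0.54 CPM in the sixth, and at 0.66 to 2.69 CPM in tumours. Its fitted change of 3.13 rests on these few counts.

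Col7a1, which forms the anchoring fibrils of skin, was the single member to fall: 0.13 to 1.40 CPM in tumours (median 0.88) and 0 to 4.09 CPM in WT (median 1.66), a change of −1.35 ± 0.48 (log2, SE, adjusted p = 0.0200 in edgeR). The groups overlapped, and the call was lost without WT_22064 (−0.92, adjusted p = 0.142) or Tumor_21349 (−1.17, adjusted p = 0.0539). The 3 tested transmembrane collagens were not called. Col23a1 was 3.11 to 17.8 CPM in tumours and 7.93 to 17.9 CPM in WT (−0.47 ± 0.30, adjusted p = 0.204), and Col25a1, which is made by neurons, was 1.75 to 24.7 and 1.13 to 7.75 CPM (0.48 ± 0.55, adjusted p = 0.502). Col12a1, Col14a1, Col17a1, Col19a1 and Col26a1 were not called either, with changes between −0.30 and 0.96.

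One tumour had the highest level of many members. Of the 25 genes that rose, Tumor_16713 had the highest value in 17 and was above every WT animal in all 25. The 25 genes were picked by a test on these same tumours, so such counts are partly set by that choice. Tumor_21354 was above every WT animal in 24 and Tumor_16844 in 21, but Tumor_21256, Tumor_16839 and Tumor_21349 in 13, 14 and 14. The sum over all 44 members was 8049 CPM in Tumor_16713, 2992 in Tumor_16844, 1765 in Tumor_16839, 989 in Tumor_21354 and 511 to 554 CPM in the other 3. Without Tumor_16713 the changes of 14 of the 26 called members moved by more than 1.5 times on the fold scale. With the group of 7, levels in a given tumour are single values with no replicate of their own beyond a second library of the same animal.

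**Figure D3:**
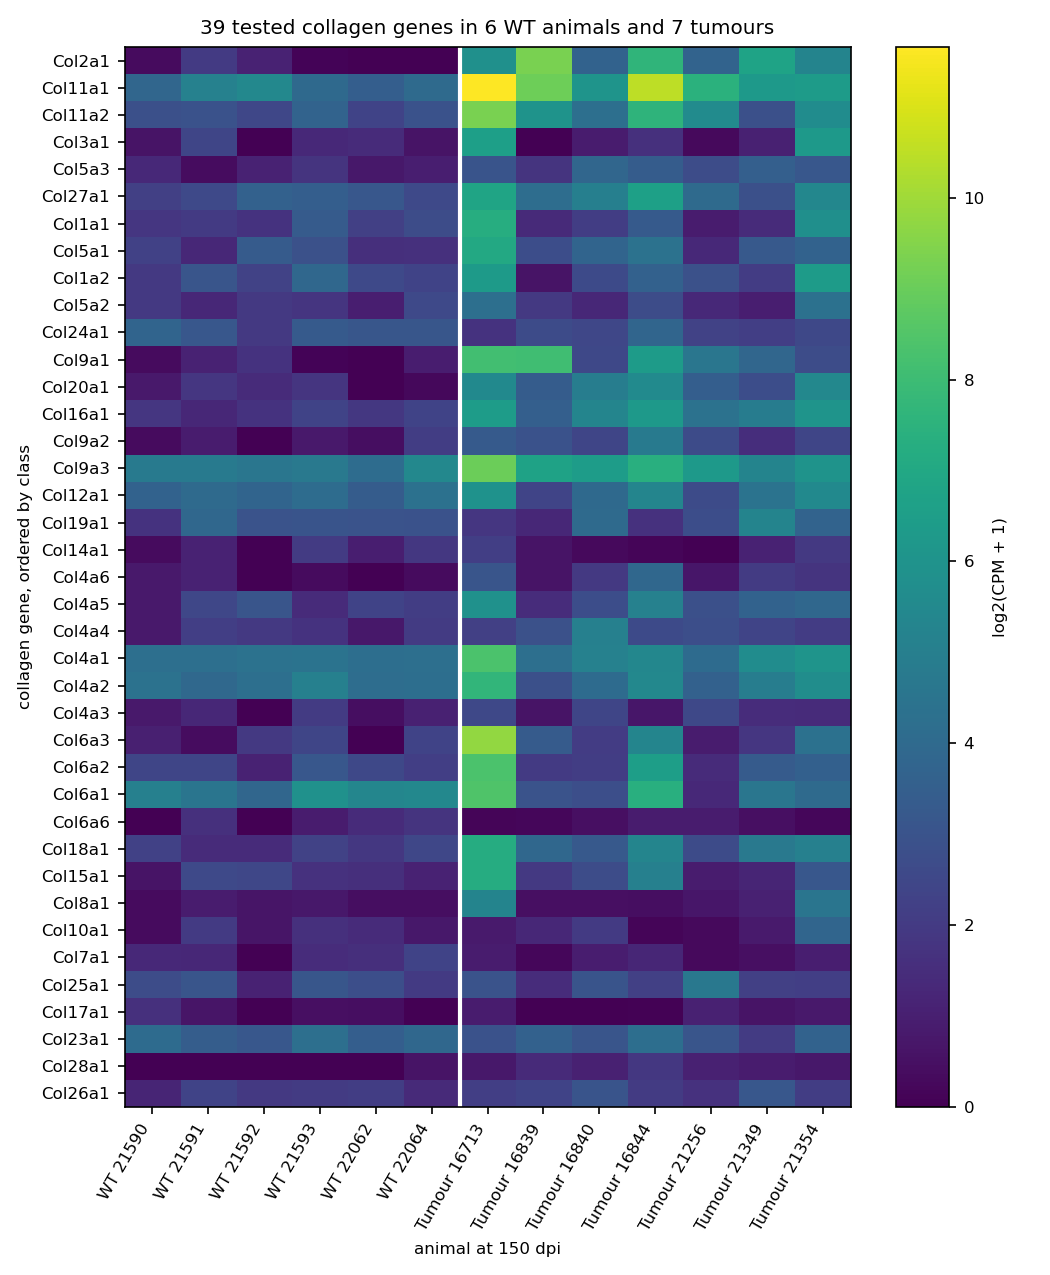
Level as log2(CPM + 1) (colour) of the 39 tested collagen genes (rows, ordered by class) in 6 WT animals and 7 tumours at 150 dpi (columns, split by the white line). Tumor_16713 is brightest in most rows, and Col1a1, Col1a2, Col3a1 and Col8a1 are bright in Tumor_16713 and Tumor_21354.

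Chains of the same type or molecule were compared over the 7 tumours on log2 CPM, in 7 pairs with exact two-sided permutation tests over all orders of the tumours and adjusted over the 7 pairs. Col6a1 and Col6a2 went together (Pearson r = 0.98, adjusted p = 0.00486; Spearman rho = 0.93, adjusted p = 0.0236), and so did Col4a1 and Col4a2 (r = 0.96, adjusted p = 0.00486; rho = 0.93, adjusted p = 0.0236). Without the 2 tumours farthest from the median of the first gene r was 0.93 and 0.95. Without Tumor_16713 the Col4a1 and Col4a2 pair had r = 0.91 and an adjusted p of 0.0535. Col9a1 with Col9a3 (r = 0.71, adjusted p = 0.0819; rho = 0.71, adjusted p = 0.154), Col5a1 with Col5a2 (r = 0.66, adjusted p = 0.124; rho = 0.43, adjusted p = 0.354) and Col11a1 with Col2a1 (r = 0.47, adjusted p = 0.284; rho = 0.54, adjusted p = 0.275) did not pass; without their 2 farthest tumours r was 0.59, 0.32 and 0.68. The type IX pair passed without Tumor_16839 (r = 0.85, adjusted p = 0.0369). For Col1a1 with Col1a2 and Col8a1 with Col8a2 the tumours fell into 2 high ones, Tumor_16713 and Tumor_21354, and 5 low ones. Col8a2 did not pass the filter on low counts. It was 1.87 and 2.43 CPM in the 2 high tumours and at most 0.54 CPM in the 5 low ones, so its values are few counts. Both pairs passed over the 7 tumours by Pearson's test (r = 0.88, adjusted p = 0.025, and r = 0.87, adjusted p = 0.0399, exact permutation) and not by Spearman's (rho = 0.75, adjusted p = 0.154, and rho = 0.61, adjusted p = 0.233). Over the 5 low tumours r was 0.46 (exact permutation p = 0.433) and 0.14 (p = 0.867), so both relations rest on the 2 high tumours. Col2a1 was highest in Tumor_16839, whereas Tumor_16713, first for Col11a1, had 57.3 CPM of Col2a1, below 3 other tumours.

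**Figure D4:**
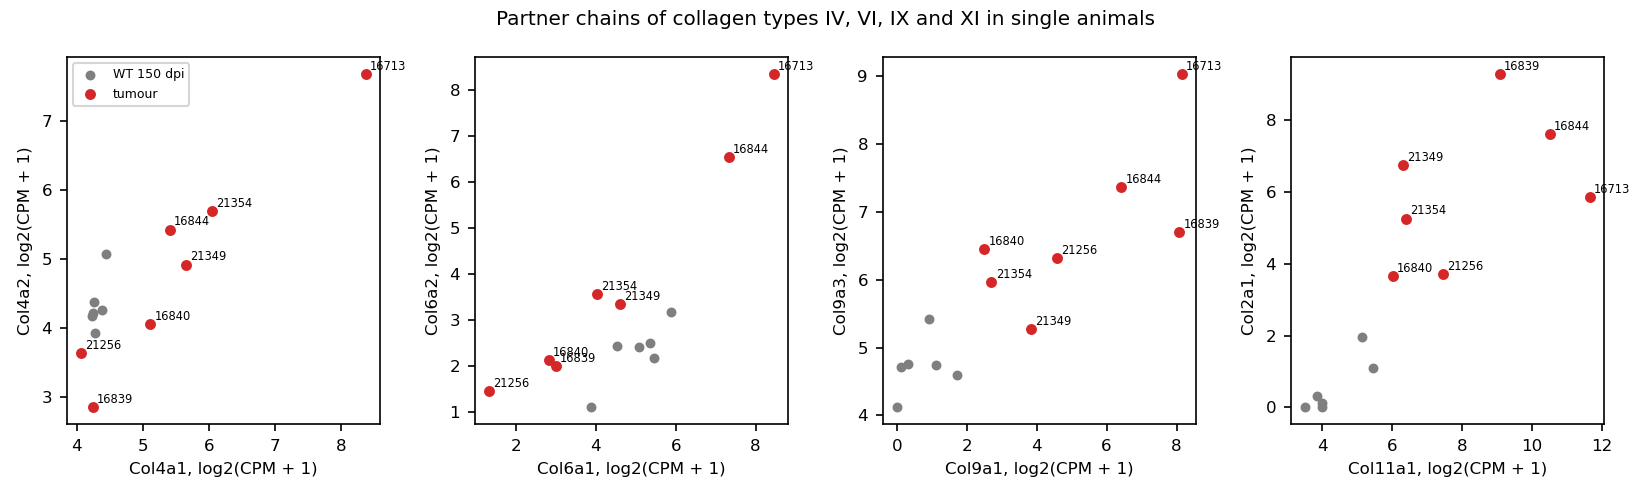
Level of 1 chain against its partner, both as log2(CPM + 1), in 7 tumours (red, with animal number) and 6 WT animals at 150 dpi (grey), for types IV, VI and IX and for Col11a1 with Col2a1. The tumours line up for Col4a1 with Col4a2 (r = 0.96) and Col6a1 with Col6a2 (r = 0.98) and scatter for Col11a1 with Col2a1 (r = 0.47).

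Compared with CKO animals at 90 dpi, which carry the same deletions, tumours changed 30 of 39 tested members, 26 higher and 4 lower, where 49.0% of all genes were called, 26.4% higher and 22.6% lower. In 7 members the groups did not overlap (17.2% of all genes). This comparison shares the tumour samples with the one against WT. Col9a1 was 7.54 ± 0.86 (log2, SE), Col2a1 7.10 ± 0.82, Col11a1 5.12 ± 0.64, Col16a1 3.34 ± 0.44 and Col3a1 4.91 ± 1.02 higher. Without Tumor_16713 the values were 6.62 for Col9a1, 3.93 for Col11a1 and 3.87 for Col3a1, and without Tumor_16839 6.23 for Col2a1. Without Tumor_16713 and Tumor_21354 together Col3a1 was 0.22 and not called (adjusted p = 0.829 in edgeR). In that fit Col9a1 was 6.85, Col2a1 7.42, Col11a1 4.14 and Col16a1 2.94, and 22 members were called. Col9a2, at 0.25 to 1.77 CPM in CKO at 90 dpi and 1.91 to 25.8 CPM in tumours, did not overlap here. The genes called lower were Col7a1 (−1.27 ± 0.46), Col23a1 (−1.12 ± 0.29), Col24a1 (−1.30 ± 0.31) and Col14a1 (−1.88 ± 0.79, adjusted p = 0.0466). Col14a1 and Col12a1 were far above the rest in CKO_20647, with 24.1 and 82.7 CPM against at most 2.05 and 8.82 CPM in the other 6. Without it Col14a1 was no longer called (−0.24, adjusted p = 0.804), and Col12a1 was called higher (1.99, adjusted p = 6.84e-04). The Col14a1 call was lost without any 1 of 18 of the 37 animals. Col7a1 was not called without CKO_22149 (−1.09, adjusted p = 0.0525) or Tumor_21349 (−1.09, adjusted p = 0.0572), and Col10a1 was called without CKO_22152 (1.91, adjusted p = 0.0455). Without Tumor_16713 Col1a1 (1.42), Col4a2 (0.45), Col5a1 (0.68), Col5a2 (1.16) and Col6a3 (1.55) were not called. Col26a1 just missed the threshold (0.85 ± 0.38, adjusted p = 0.0586) and passed it without any 1 of 6 single animals.

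The change of the genotype effect between 90 and 150 dpi, that is tumour against WT minus CKO against WT at 90 dpi, was tested as an interaction. It was positive and called for 19 of 39 members and negative for none, against 30.0% of all genes called, 14.2% higher and 15.8% lower. Col9a1 (7.70 ± 1.34), Col2a1 (7.48 ± 1.46), Col3a1 (5.55 ± 1.48) and Col11a1 (5.05 ± 0.89) had the largest values (log2, SE). Single animals moved each of them by more than 1.5-fold, with the call kept. Col3a1 was high only in Tumor_16713 and Tumor_21354, at 94.7 and 75.1 CPM, so leaving out 1 animal always kept a high tumour. Without both, its change in tumours against WT was −0.60 and was not called. Col9a1 was 6.74 without Tumor_16713 and 6.71 without WT_22254 of 90 dpi. Col2a1 was 6.46 without Tumor_16839, 6.89 without WT_22184 of 90 dpi and 9.16 without WT_21591. Col3a1 was 4.41 without Tumor_21354, 4.76 without Tumor_16713 and 6.24 without WT_21591, and Col11a1 was 4.10 without Tumor_16713. Without Tumor_16713 or without WT_22254 of 90 dpi the calls of Col1a2, Col6a3, Col15a1 and Col27a1 were lost, and the count was 14 without that WT animal, which also removed Col5a3. The call of Col1a2 (2.97, adjusted p = 0.0328) was lost without any of 7 single animals.

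Many genes that make, modify and crosslink collagen rose too. In tumours against WT at 150 dpi 18 of 30 tested genes of that list rose and 2 fell (median log2 change 1.35), where 24.3% of all genes were called higher and 21.9% lower (median 0.062). The largest rises were those of Lox, the lysyl oxidase that crosslinks fibrils (5.32 ± 1.02, 0 to 1.00 CPM in WT and 4.71 to 48.7 CPM in tumours), Pcolce2, an enhancer of procollagen cleavage (3.04 ± 0.63), and Adamts14, a procollagen N-protease (2.41 ± 0.79). The genes that fell were Tll1, a procollagen C-protease of the tolloid family (−3.11 ± 0.44), and Adamts3 (−1.40 ± 0.25). Of collagen receptors 8 of 10 tested rose and none fell (median 1.43), beside the same 24.3% and 21.9%, led by the discoidin receptor Ddr2 (2.74 ± 0.31, 9.07 to 13.2 CPM in WT and 29.5 to 104 CPM in tumours), the integrin subunit Itgb1 (2.19 ± 0.21, 65.8 to 88.0 CPM in WT and 198 to 591 CPM in tumours) and Itga2 (2.00 ± 0.52). The 3 receptors and Lox were above every WT animal in every tumour except Itga2, whose lowest tumour value was 2.80 CPM against a highest WT value of 6.43 CPM. In CKO against WT at 12 and 90 dpi 0 genes of both lists were called.

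In the small libraries, which read polyadenylated RNA after PCR and are not compared in level with the bulk ones, a collagen gene was called detected with an expected count above 0. A 10-cell library held a median of 10 collagen genes at 12 dpi (range 2 to 24) and 14 at 90 dpi (5 to 26), and a pool-and-split library 11.5 (4 to 23) and 12 (5 to 20). Of the 44 members 39 and 40 were found in at least 1 10-cell library at 12 and 90 dpi, and 38 and 39 in at least 1 pool-and-split library. Most were sparse: 6 and 12 were in at least 50% of 10-cell libraries, and 9 and 11 in at least 50% of pool-and-split libraries. With a count of at least 5 in place of a count above 0, the number of libraries moved by more than 1.5 times in 60 of 176 gene and group combinations.

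The genes found most often were Col26a1, Col4a1 and Col6a1. Col4a1 was in 47 of 56 10-cell libraries at 12 dpi, 55 of 56 at 90 dpi, and 37 of 40 pool-and-split libraries at each time, with 10 to 14 of 14 in every 10-cell set (a set being the libraries of 1 sex and number in the labels). Col26a1, a secreted collagen of unclear role, was in 47, 52, 39 and 39, but with at least 5 counts in 26 of the 10-cell libraries at 12 dpi. Col6a1 was in 41, 42, 35 and 30 and reached 2987 CPM in 1 10-cell library at 12 dpi. Col4a1 and Col4a2 were found together in 35 and 46 10-cell libraries, Col4a1 alone in 12 and 9 and Col4a2 alone in 3 and 1. Vessel markers were read in the same libraries. The summed level of 12 mural markers had a median of 2097 CPM in 10-cell libraries at 12 dpi and 1536 CPM at 90 dpi, that of 12 endothelial markers 661 and 682 CPM, and that of 12 OPC markers 575 and 799 CPM. The part of vessel cells in the basement membrane counts was not tested.

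Col2a1 and Col9a1, which had the largest rises in tumours, were in few of the small libraries. Col2a1 was in 2 of 56 10-cell libraries at 12 dpi and 1 of 56 at 90 dpi, and in 1 and 2 of 40 pool-and-split libraries. Col9a1 was in 1 and 9 10-cell libraries and in 6 and 2 pool-and-split libraries. Col11a1 was in 14 and 17 and in 8 and 15, with at most 154 CPM. Col9a3 and Col11a2 were common already: Col9a3 in 26 and 45 10-cell libraries and in 18 and 35 pool-and-split libraries, and Col11a2 in 22 and 36 and in 14 and 28. Col17a1 and Col6a5 were in none of the 192 libraries. A count of 0 in 56 libraries allows a share of up to 5.36% and in 40 libraries up to 7.50% of libraries with a count. Col3a1 was in 7 and 10 10-cell libraries and Col1a1 in 16 and 7, whereas Col1a2 was in 30 and 43. In 10-cell libraries at 12 dpi 11 held both Col1a1 and Col1a2, 5 Col1a1 alone and 19 Col1a2 alone. At 90 dpi 7 held both, 0 Col1a1 alone and 36 Col1a2 alone.

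**Figure D5:**
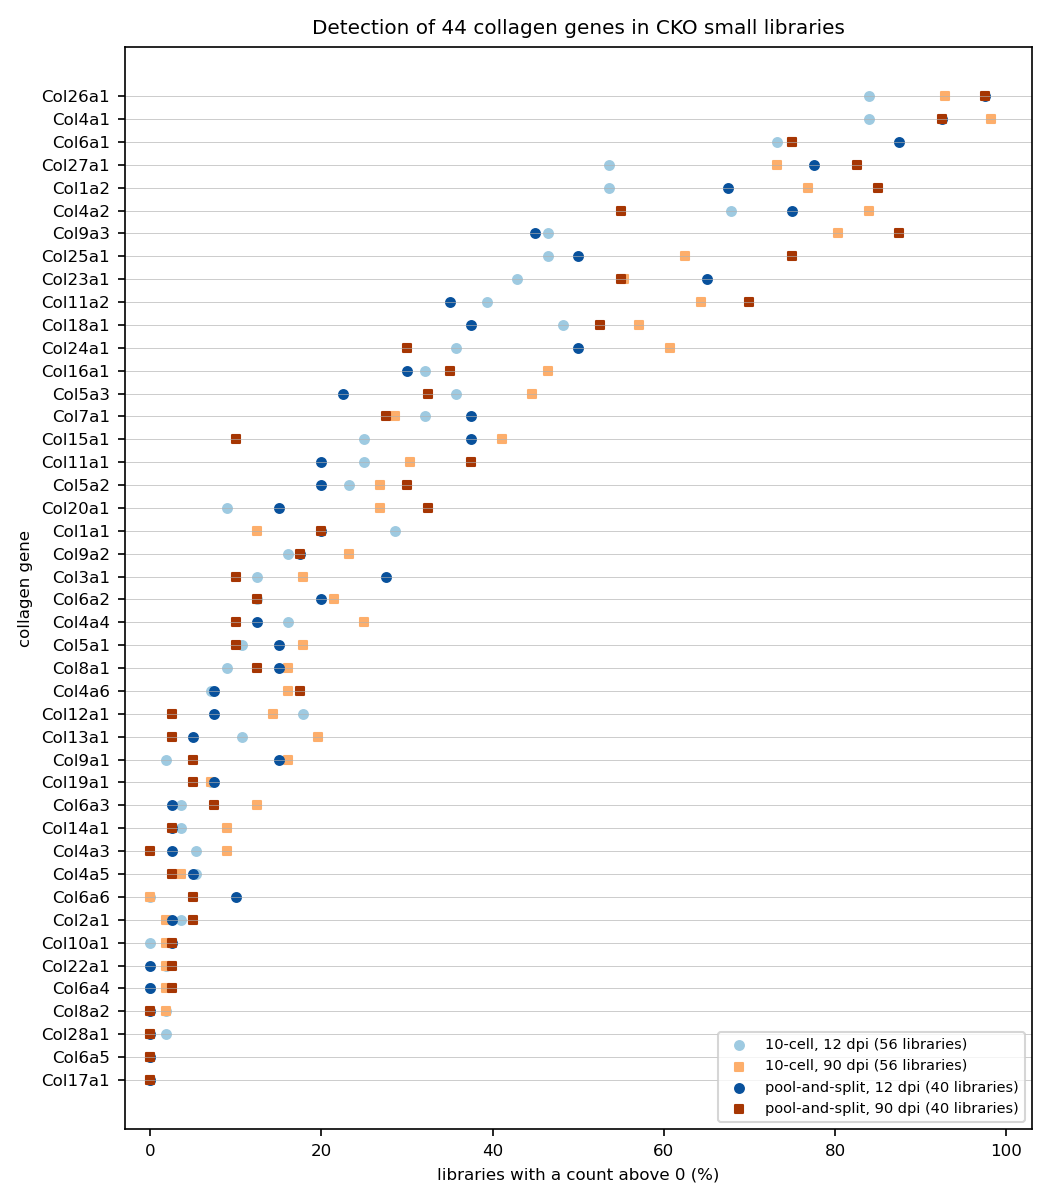
Share of small CKO libraries with a count above 0 (x axis, percent) for each of the 44 collagen genes (y axis, ordered by mean share), by kind of library and dpi (56 10-cell and 40 pool-and-split libraries at each time, 1 point each; some points cover others). Col26a1, Col4a1 and Col6a1 lie at the top, and Col2a1 lies near 0 in all 4 groups.

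Between 90 and 12 dpi no collagen gene passed the test in the sums over sets. Of 32 tested members in 10-cell sets and 25 in pool-and-split sets none was called, and no gene of the table was (0% of 14496 and 0% of 13402; edgeR, 4 sets per time). At an unadjusted p under 0.05 there were 5 and 4 members, and DESeq2 called 3 and 6. No tested collagen passed the test of the spread between single libraries, 10-cell against pool-and-split: 0 of 7 members at 12 dpi and 0 of 11 at 90 dpi, against 0.0254% of 7874 and 0.621% of 9658 genes (limma, moderated test of absolute deviations). Single libraries entered that test as samples, although they come from 4 sets per kind and time. Its p-values measure the spread between libraries and not between sets. The smallest adjusted p was 0.420 and 0.337, with 2 and 1 members at an unadjusted p under 0.05. The common biological coefficient of variation was 0.955 between 10-cell sets and 1.08 between pool-and-split sets, against 0.418 between bulk animals.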

How the data were processed

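The deposited values are expected counts, not scaled to depth, with 1 column per library per the file header. The submitters' processing notes name RSEM, Bowtie2 and GRCm38, without versions. Per the labels, bulk samples (10 µm sections, total RNA) were amplified linearly with T7 polymerase and sheared, and small ones (8 µm, polyadenylated RNA) amplified by PCR into Nextera XT libraries. The 92 spike-in entries stayed out of totals and tests. Coordinates of 43 members equal those of GENCODE M21 (GRCm38); those of Col20a1 differ.

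Members and lists were chosen with earlier results of these data known. Members are all protein-coding genes named as collagen alpha chains. From other lists, up to 3 genes in each direction, ranked by the size of a called change, may be named. Dcn, Aldh1a2, Slc6a13, Osr1, Slc22a6, Igf2, Slc47a1, Fbln1, Hapln1 and Rgs5 were added after their values were seen. The 2 libraries of each of 11 animals were summed, and expected counts were rounded. Whether animals of 1 group were litter mates is not given in the sources used here, and the labels do not say what the set numbers of small libraries are, so p-values measure the spread between these samples. All 37 animals entered 1 edgeR 4.0.16 fit (R 4.3.3) with sex as a covariate and 8 contrasts, after TMM scaling and edgeR's expression filter (filterByExpr, at least 10 counts, total of at least 15); set sums were fitted likewise. The test was the quasi-likelihood one, and a call is a p under 0.05 after Benjamini-Hochberg adjustment across the table. Log2 CPM has a prior count of 2, and the spread of small libraries was tested on log2(CPM + 1) with limma 3.58.1 for genes in 50% of libraries. Correlations and detection used pandas 2.3.3, numpy 2.4.6 and scipy 1.17.1. A search for copies (at least 95% identity over 50% of the shorter transcript) among table genes found 0 members with one. The fits were also run on simulated counts with known changes. The outcome is not given here, so the size of change that the set tests could miss is not stated. Each result was recomputed with DESeq2 1.42.0, with size factors by RLE, unfiltered, without the sex covariate, on the compared groups alone, on the deepest library of each animal, without each sample, with a replicate block for sets, with other pseudocounts, prior counts and detection limits, and, added after seeing the data, without Tumor_16713 and Tumor_21354 together. Limits from a count of 0 use 3 counts and cover counting error only.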

Additional observations from a re-analysis of the deposited data

Results flagged for a closer look

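Single animals that stood apart from the rest of their group (Dixon's test on a log scale) were found in 24 of 234 combinations of collagen gene and group. The values below are printed as CPM. Chance gives about 1 in 20 for normally distributed values, which low counts with zeros need not be. Many were zeros of a shallow animal: Col4a1, Col7a1, Col11a2, Col16a1, Col18a1, Col20a1 and Col26a1 were all at 0 CPM in WT_21167 at 90 dpi, whose 3-count floor is 28.4 CPM. Other zeros were Col2a1 in CKO_22149 at 90 dpi, Col3a1 in CKO_21725 at 12 dpi, Col16a1 in the same animal, Col6a6 in WT_22180 and Col20a1 in WT_22056 at 12 dpi, and Col7a1 in WT_21592 at 150 dpi, each 0 CPM.

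Most high single values came from CKO animals at 90 dpi. CKO_20647 had 82.7 CPM of Col12a1 (others 4.08 to 8.82) and 24.1 CPM of Col14a1 (others 1.03 to 2.05), but only 18.0 CPM of Col6a1 (others 41.1 to 67.5). CKO_20642 had 13.0 CPM of Col1a2 (others 2.14 to 4.35), and CKO_22146 0.51 CPM of Col28a1 (others 0 to 0.12). Col28a1 was 0.54 CPM in WT_22064 at 150 dpi and 0 in the others. Among tumours only Col4a4 was marked, with 32.6 CPM in Tumor_16840. Low single values were those of Col9a3 in CKO_21725 at 12 dpi (11.3 CPM, others 28.8 to 45.1), Col6a1 (18.3 CPM) and Col11a1 (13.7 CPM) in WT_22056 at 12 dpi, and Col24a1 in WT_21592 at 150 dpi (2.83 CPM, others 7.63 to 12.5).

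The genotype effect differed between 90 and 150 dpi, by the interaction test in edgeR, for 19 collagen genes, all with a larger effect at 150 dpi. In log2 units the differences were 7.70 for Col9a1, 7.48 for Col2a1, 5.55 for Col3a1, 5.05 for Col11a1, 4.36 for Col6a3, 4.28 for Col8a1, 4.27 for Col20a1 and 4.21 for Col11a2. They were 3.85 for Col15a1, 3.84 for Col18a1, 3.82 for Col4a6, 3.82 for Col6a2, 3.65 for Col16a1, 3.63 for Col9a2, 2.97 for Col1a2, 2.41 for Col9a3, 2.22 for Col4a1, 2.06 for Col5a3 and 1.91 for Col27a1. Without Tumor_16713 the values were 6.74 for Col9a1, 4.76 for Col3a1, 4.10 for Col11a1, 3.03 for Col8a1, 2.99 for Col11a2, 3.05 for Col18a1, 2.50 for Col6a2, 1.79 for Col9a3 and 1.34 for Col4a1, all still called, and 1.71 for Col6a3 (adjusted p = 0.270 in edgeR) and 2.37 for Col15a1 (adjusted p = 0.0898), which were not. Col3a1 and Col8a1 were high only in Tumor_16713 and Tumor_21354, and each fit without 1 animal kept at least 1 of these tumours. Without Tumor_21354 the values were 4.41 for Col3a1 and 2.15 for Col1a2 (adjusted p = 0.134), without Tumor_16839 6.46 for Col2a1, and without Tumor_16844 3.00 for Col9a2 and 3.19 for Col4a6. Without 1 animal of another group they were 6.71 for Col9a1 and 3.39 for Col6a3 (adjusted p = 0.131; WT_22254), 6.89 for Col2a1 (WT_22184), 9.16 for Col2a1 and 6.24 for Col3a1 (WT_21591), 4.68 for Col9a2 (WT_22064), 5.09 for Col6a3 (WT_21593), 5.11 for Col8a1 (CKO_20647) and 3.62 for Col1a2 (CKO_20642).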

How the results depend on the processing

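The number of collagen genes called, tumour against WT at 150 dpi, was 26, and 17 with the compared groups fitted alone; the count without 1 animal ranged from 23 to 28. Against CKO at 90 dpi the 30 calls ranged from 26 to 31 without 1 animal, and the 19 interaction calls from 14 to 22. The WT comparison of 90 against 12 dpi called 1 collagen gene (Col6a1) when fitted alone and 0 otherwise. DESeq2 called 3 collagen genes in 10-cell sets (Col4a2, Col26a1 and Col28a1) and 6 in pool-and-split sets, where edgeR called 0; the cause was not tested. With the set label as replicate block both counts stayed 0; the numbers do not pair the samples, with residual correlations of −0.034 to 0.019 for 10-cell and −0.039 to 0.003 for pool-and-split sets, and bulk animals share no numbers. Chain pairs passing the correlation test were 4, 0 without the 2 farthest tumours (fewer samples) and 1 to 5 without 1 tumour. RLE scaling moved the median of all genes by 0.15 (against WT), 0.17 (against CKO) and 0.16 (interaction) on the log2 scale, against TMM. Signs turned only for changes that were not called or rested on Tumor_16713 and Tumor_21354. Without both, against WT, values were −0.39 for Col1a1, −0.18 for Col1a2, −0.60 for Col3a1, −0.082 for Col5a2 and −0.38 for Col10a1, and against CKO −0.24 for Col1a1, −0.24 for Col6a1, 0.064 for Col6a6, −0.48 for Col8a1 and −0.50 for Col17a1. Col25a1 against CKO was 0.51 with the deepest library of each animal. Without 1 animal, values against WT ran from −0.46 to 1.34 (Col10a1), −0.87 to 0.18 (Col14a1), −0.64 to 0.80 (Col17a1), −0.10 to 0.75 (Col19a1) and −0.16 to 0.67 (Col25a1), and against CKO from −0.39 to 1.01 (Col6a1), −0.17 to 1.05 (Col17a1), −0.13 to 0.66 (Col19a1) and −0.96 to 0.63 (Col25a1). Col4a6 could not be fitted without both tumours. Depth limits the low collagens: below a few CPM a value is a handful of counts.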
